A study of Mus musculus with 6 samples.

Results

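The hyaluronan system of cultured cardiac fibroblasts (CFs) was examined through 8 genes chosen by name for what they encode: the synthases *Has1* and *Has2*, the binding proteins *Vcan* and *Cd44*, the matrix protein *Tnfaip6*, the hyaluronidases *Hyal1* and *Hyal2*, and *Cemip*. All 8 were among the 19446 genes of the table, and 8 of 8 were among the 15948 genes that had at least 10 reads in at least 2 libraries and were tested. Poly(A) RNA had been sequenced from 3 wild type (WT) and 3 CharmeKO cultures of CFs from mice labelled as 5 weeks old, to ask how the loss of *Charme*, a cardiac long non-coding RNA, changes the transcriptome of these cells. Mice of both groups were of the C57BL/6J strain. By the methods given, the CharmeKO line carries a polyadenylation signal inserted in the *Charme* locus, and the cells of either group were those that grew out of minced atrial tissue, pooled from littermates, onto fibronectin in medium rich in serum. The cultures therefore stand for atrial outgrowth cells of pooled animals from a single knockout line and not for CFs of the whole heart. For the tissue donors of such cultures the methods give a range of ages around the labelled 5 weeks. The labels name no treatment for either group.

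Hyaluronan is a long sugar polymer without a protein core, which HAS enzymes in the plasma membrane build from UDP-glucuronic acid and UDP-N-acetylglucosamine and extrude into the matrix. There it swells with water and is organised by binding partners such as versican and by receptors such as CD44, and it is broken down by hyaluronidases and by the CEMIP pathway. In the heart a hyaluronan and versican rich jelly fills the cushions from which the valves form, and fibroblasts deposit hyaluronan again after injury.

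The libraries held 38330019 to 46797446 recovered reads, so that 0 reads allows up to 3 reads, or 0.0641 to 0.0783 CPM, which are reads scaled to the library's total. The feature taken as *Charme*, which is an inference from its name (CUFF405), was covered by 5, 15 and 11 reads in WT 1, 2 and 3, against 0, 6 and 3 in CharmeKO 1, 2 and 3. This is too few reads to check the genotype firmly. The labelled cell type was borne out by its markers: all 12 fibroblast markers were present, with a summed level of 26196 to 54810 CPM in WT and 34215 to 45228 CPM in CharmeKO, led by *Col1a1* at 9285 to 20004 CPM. The 3 cardiomyocyte markers in the table summed to 3.22 to 18.5 CPM, led by *Tnnt2*, and 5 endothelial markers to 1.37 to 6.11 CPM, led by *Kdr*; *Ryr2* and *Cdh5* were at 0 in at least 1 library. The 10 macrophage and leukocyte markers summed to 46.4 to 201 CPM in WT and 25.4 to 428 CPM in CharmeKO, led by *Lyz2*, with *Ptprc* and *Itgam* at 0 in at least 1 library. The smooth muscle and mesothelial markers are given beside the genes they moved with. In such bulk RNA, fewer cells of a type and less RNA per cell cannot be told apart.

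Per exon length, the level of *Cemip* stood above that of every other gene of the group in all 6 libraries. Its level was 188 ± 28.4 RPKM, reads per kilobase of exon scaled to the library's total (SD, n = 3), in WT and 363 ± 316 RPKM (SD, n = 3) in CharmeKO, and by mean read number it was gene 20 of the table. *Cd44* followed with 53.7 ± 29.1 and 33.5 ± 18.9 RPKM, *Vcan* with 21.1 ± 10.8 and 16.3 ± 12.9 RPKM and *Has2* with 10.2 ± 5.40 and 12.5 ± 14.2 RPKM. The levels of the remaining genes were lower, with *Hyal2* at 8.30 ± 1.48 and 9.07 ± 2.24 RPKM, *Tnfaip6* at 2.56 ± 1.88 and 3.14 ± 2.01 RPKM, *Hyal1* at 1.64 ± 0.608 and 1.68 ± 0.863 RPKM and *Has1* at 0.525 ± 0.0576 and 0.371 ± 0.182 RPKM. Not every step of this order was larger than the spread. The ranges over the 6 libraries did not overlap between *Cemip* and *Cd44*, between *Hyal2* and *Tnfaip6*, or between *Hyal1* and *Has1*. *Vcan* lay above *Has2* within each of the 6 libraries although their ranges overlapped, whereas *Cd44* exceeded *Vcan* in 4 of 6 libraries, *Has2* exceeded *Hyal2* in 3 of 6, and *Tnfaip6* exceeded *Hyal1* in 3 of 6, so the order within these last 3 pairs was not distinguishable from the spread.

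**Figure D1:**
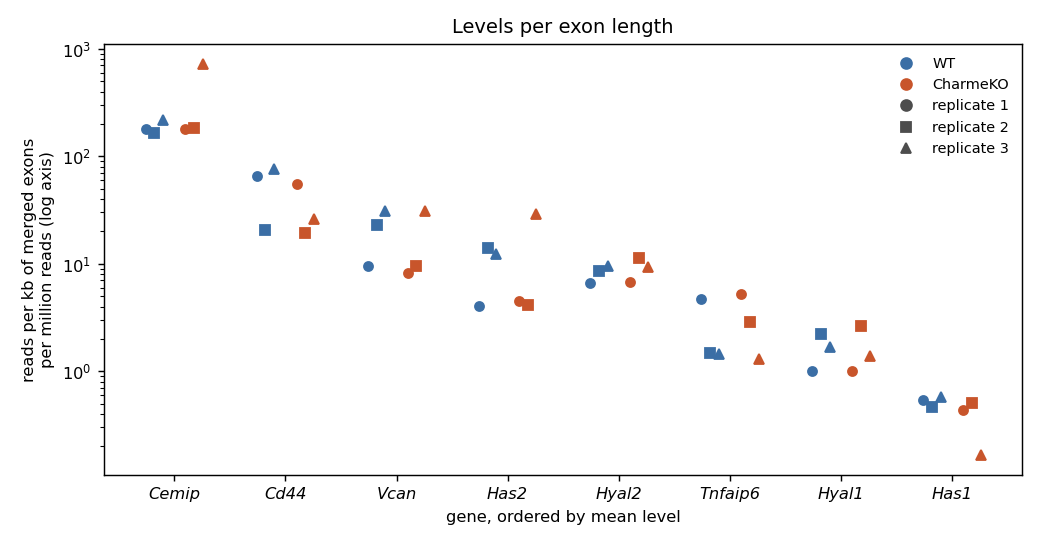
Level of the 8 genes in each library, in reads per kilobase of merged exons scaled to the library's total (RPKM) on a log axis, with colour for genotype and marker shape for the replicate number. *Cemip* lies above all other genes in all 6 libraries, and CharmeKO 3 stands apart from the other CharmeKO libraries for *Cemip*, *Has2* and *Has1*.

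None of the 8 genes showed a difference between CharmeKO and WT larger than the spread between libraries. In limma's moderated test on log2(normalised reads + 1), with Benjamini-Hochberg adjustment over all 15948 genes, 0 of 8 passed the adjusted threshold of 0.05 (adjusted p = 0.9999 for each), where the background was 0% of all genes. At an unadjusted p under 0.05 the count was 0 of 8 beside 0.897% of all genes. With the replicate number as a block in limma it was 0 of 8 beside 5.37%. edgeR's quasi-likelihood test and DESeq2 on the recovered reads also called 0 of 8, each with and without the replicate number as a block. Over all genes edgeR called 0 either way, and DESeq2 called 8 without the block and 64 (0.426%) with it. The log2 fold changes ranged from -0.67 (*Has1*) to 0.59 (*Cemip*), with 3 above and 5 below 0 and a median of -0.11, beside a median of 0.0022 over all genes tested. The CharmeKO values all lay below the WT values for 0 of 8 genes and all above them for 0 of 8, where 1.98% and 2.14% of all genes did (4.11% in either direction). A fold change reaching 1 on the log2 scale in either direction was seen in 0 of 8, beside 5.04% of all genes. The intervals were wide: only that of *Hyal2*, from -0.47 to 0.63, excluded a log2 difference of 1 in both directions, while with the replicate number as a block that of *Hyal1*, from -0.55 to 0.46, did so too.

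**Figure D2:**
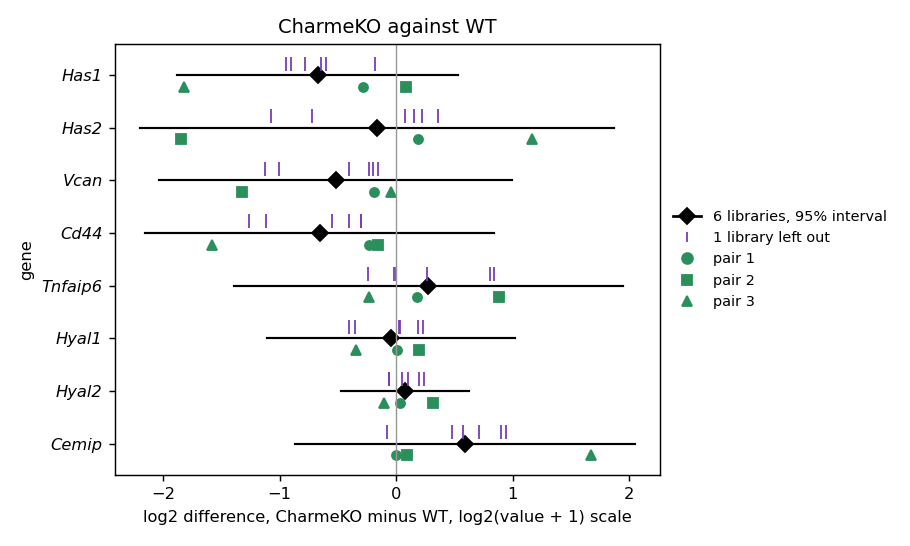
Log2 difference of CharmeKO minus WT for each gene on the log2(value + 1) scale, as the limma estimate from 6 libraries with its 95% interval (diamond and line), as the estimates with 1 library left out (ticks) and as the differences within same-numbered libraries (green markers). All 8 intervals include 0, and the largest differences within a pair were -1.85 for *Has2* in pair 2, -1.82 for *Has1* in pair 3 and 1.67 for *Cemip* in pair 3.

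The synthases came first. *Has2*, the main hyaluronan synthase of the developing heart, lies on the minus strand of chromosome 15 (chr15:56665627-56694539, GRCm38) and shares 182 exon bases with the antisense gene *Has2os*. The reads were counted by strand. It had 728, 2455 and 2218 normalised reads in WT 1, 2 and 3 and 829, 681 and 4980 in CharmeKO 1, 2 and 3. CharmeKO 3 was the highest of all 6 libraries and CharmeKO 2 the lowest, and the range within CharmeKO, 7.31-fold, held that of WT. Mean values were 1800 ± 936 for WT and 2163 ± 2440 for CharmeKO (SD, n = 3), and the log2 fold change was -0.16 (SE 0.848, 95% interval -2.20 to 1.87, limma unadjusted p = 0.852) that was positive, at 0.27, in edgeR's fit to the reads. Within same-numbered pairs CharmeKO minus WT was 0.19, -1.85 and 1.17 on the log2 scale, so the pairs differed in direction.

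*Has1*, a second synthase that makes the same polymer, lies at chr17:17843323-17855205 on the minus strand. It had 103, 85.4 and 109.9 normalised reads in WT and 84.6, 90.4 and 30.4 in CharmeKO. CharmeKO 3 was the lowest library by far, and CharmeKO 2 lay above WT 2. Mean values were 99.6 ± 12.7 for WT and 68.5 ± 33.1 for CharmeKO (SD, n = 3), and the log2 fold change was -0.67 (SE 0.504, 95% interval -1.88 to 0.53, limma unadjusted p = 0.226). Without CharmeKO 3 the log2 fold change was -0.18. The same library was thus highest for *Has2* and lowest for *Has1*. *Has2* made up 87.7%, 96.4% and 95.3% of the summed RPKM of the 3 synthases in WT 1, 2 and 3 and 91.1%, 88.5% and 99.2% in CharmeKO 1, 2 and 3, and the ratio of *Has2* to *Has1* by RPKM was 7.50, 30.6 and 21.5 in WT and 10.4, 8.03 and 174 in CharmeKO. The third synthase, *Has3*, stayed at 0.0070 to 0.0736 RPKM.

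**Figure D3:**
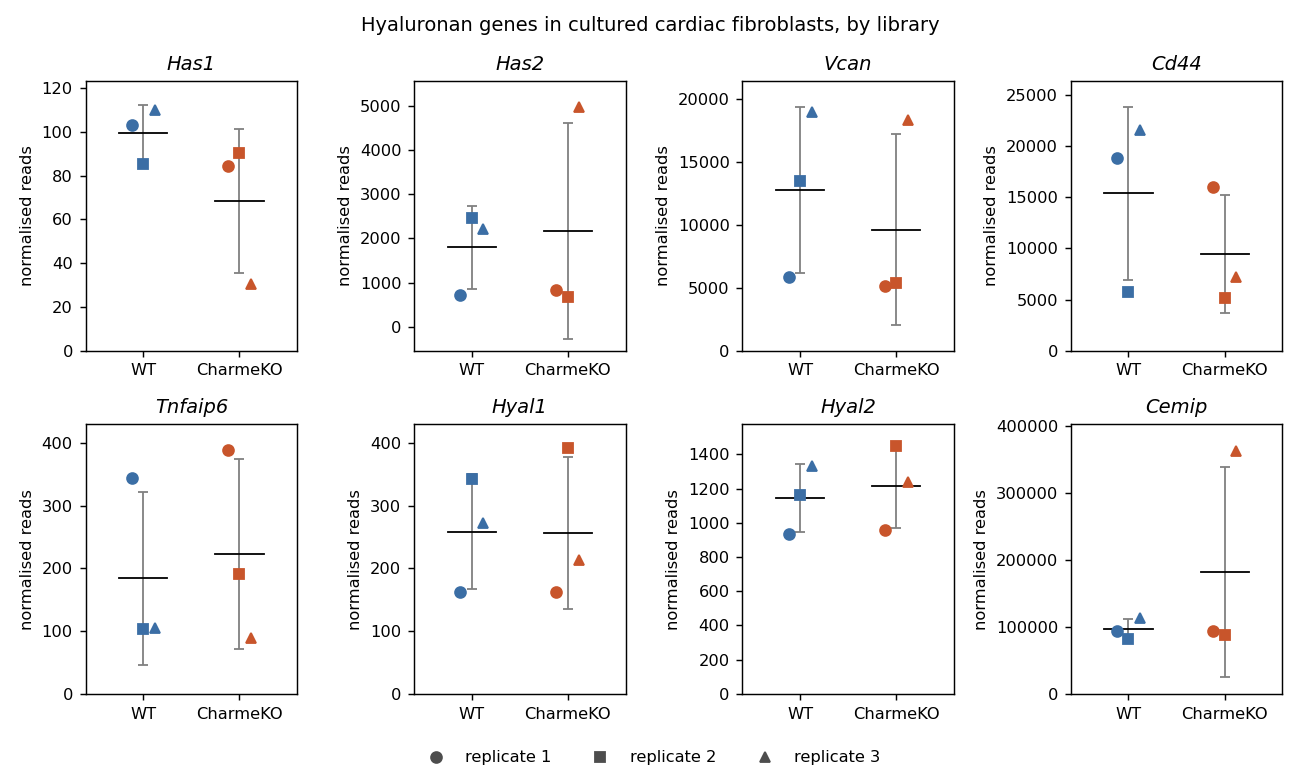
Normalised reads of the 8 genes in the 3 WT and 3 CharmeKO libraries, with points for libraries, marker shape for the replicate number, a black line for the mean and grey bars for 1 SD. In no panel do the groups separate, and CharmeKO 3 is the highest library for *Has2* and *Cemip* and the lowest for *Has1* and *Tnfaip6*.

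*Vcan* encodes versican, a large chondroitin sulfate proteoglycan that binds hyaluronan with its N-terminal domain and fills the provisional matrix of the embryonic heart and of wounds. The gene spans chr13:89655312-89742509 on the minus strand, with 16 merged exons and 14462 exon bases. It had 5822, 13456 and 18941 normalised reads in WT and 5112, 5372 and 18339 in CharmeKO. The CharmeKO value was below the WT value of the same number each time, but in pairs 1 and 3 only by 0.19 and 0.047 on the log2 scale, and in pair 2 by 1.32. Mean values were 12740 ± 6589 for WT and 9608 ± 7563 for CharmeKO (SD, n = 3), and the log2 fold change was -0.52 (SE 0.631, 95% interval -2.03 to 0.99, limma unadjusted p = 0.439). The estimate was -1.12 without CharmeKO 3 and -0.15 without WT 3. With the replicate number as a block the limma SE was 0.284 (95% interval -1.28 to 0.24, limma unadjusted p = 0.134).

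*Cd44* encodes the main cell surface receptor for hyaluronan, which links the polymer to the cortical cytoskeleton. It spans chr2:102811141-102901665 on the minus strand with 19 merged exons, several of which are alternatively spliced, a choice that the gene totals do not show. It had 18799, 5714 and 21597 normalised reads in WT and 15999, 5135 and 7229 in CharmeKO. Both libraries numbered 2 and CharmeKO 3 were low, and the 2 libraries numbered 1 and WT 3 were high. Mean values were 15370 ± 8478 for WT and 9454 ± 5764 for CharmeKO (SD, n = 3), and the log2 fold change was -0.66 (SE 0.625, 95% interval -2.15 to 0.84, limma unadjusted p = 0.332). Within pairs the difference was -0.23, -0.15 and -1.58. With the replicate number as a block the limma SE was 0.322 (95% interval -1.51 to 0.20, limma unadjusted p = 0.104). A DESeq2 fit blocked on the replicate number gave an unadjusted p of 0.0458 and an adjusted p of 0.822. Without WT 2 limma's log2 fold change was -1.26 (limma unadjusted p = 0.0457, adjusted p = 0.9997). No other limma fit without 1 library gave an unadjusted p under 0.05 for any of the 8 genes. *Vcan* and *Cd44* were thus the 2 of 8 genes that were lower in all 3 pairs, where 14% of all genes were, and 0 of 8 were higher in all 3, where 16.4% were.

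The libraries with low *Cd44* also had the lowest sum of the smooth muscle and pericyte markers. The 9 markers, all in the table, summed to 3287, 784 and 5751 CPM in WT 1, 2 and 3 and to 3085, 288 and 755 CPM in CharmeKO 1, 2 and 3. The sum was carried by the contractile genes *Acta2* (138 to 3685 CPM) and *Tagln* (59.0 to 1490 CPM), and not all members moved with it. *Notch3*, a receptor of mural cells, was highest in the low-*Cd44* libraries, with 102, 78.0 and 69.6 CPM in WT 2, CharmeKO 2 and CharmeKO 3 beside 28.0 to 39.5 CPM in the others, and *Rgs5*, a pericyte marker, had 24.4, 5.12 and 1.86 CPM there beside 0.716 to 1.22 CPM. The part of these cells in the *Cd44* values was not tested. *Msn*, picked after its values had been seen, encodes moesin, a linker protein that binds the tail of CD44. It had 59888, 18136 and 51256 normalised reads in WT and 55942, 16584 and 25562 in CharmeKO. Other linker genes of the same list followed *Cd44* less. *Rdx* had 5749, 5235 and 6261 in WT and 4972, 4523 and 6282 in CharmeKO. *Ezr* had 11462, 2273 and 4107 in WT and 11873, 3575 and 4684 in CharmeKO, low in WT 3 where *Cd44* was highest.

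Promoter windows are shown for 3 genes, those other than *Has2* whose highest library exceeded the lowest by more than 4-fold (4.21-fold for *Cd44*, 4.34-fold for *Tnfaip6* and 4.41-fold for *Cemip*). They were read from RefSeq's GRCm38.p6 annotation, in which 7 of the 8 genes had a window; *Has2* had none. They were searched on both strands for 6 short motifs, TATAAA (bound by TBP), CCAAT (by NF-Y), GGGCGG (by SP1), TGANTCA (by AP-1), GGAATG (by TEAD factors) and CTTTGA (by TCF factors). That of *Cd44*, the 250 bases before its start (chr2:102901666-102901915, minus strand), held none of the 6 and so has no capitals. Among 32851 windows of the same length 12.4% held TATAAA, 33.8% CCAAT, 32.7% GGGCGG, 6.75% TGANTCA, 12.6% GGAATG and 13.8% CTTTGA.
Cd44 promoter: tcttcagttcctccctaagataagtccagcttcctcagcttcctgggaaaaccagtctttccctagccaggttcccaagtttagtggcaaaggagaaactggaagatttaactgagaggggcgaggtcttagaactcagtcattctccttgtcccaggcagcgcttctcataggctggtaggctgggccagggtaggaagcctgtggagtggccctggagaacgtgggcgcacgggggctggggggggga
The GC content was 56.4%, beside a median of 52.4% over all windows. A match or its lack describes letters and says nothing about factor binding.

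*Tnfaip6* encodes TSG-6, a secreted protein that moves heavy chains from inter-alpha-inhibitor onto hyaluronan and so crosslinks the polymer. It is known to be induced by inflammatory cytokines. It lies at chr2:52038009-52056686 on the plus strand. The 146 bases shown, from 250 to 105 bases before the RefSeq start and outside annotated exons (chr2:52037863-52038008, plus strand), have in capitals a GGGCGG match on the reverse strand, a CCAAT and a TGANTCA match.
Tnfaip6 promoter: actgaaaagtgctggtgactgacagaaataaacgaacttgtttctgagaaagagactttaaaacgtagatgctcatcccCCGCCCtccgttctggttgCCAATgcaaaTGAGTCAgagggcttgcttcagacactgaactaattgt
The same stretch held GGGCGG in 16.1%, CCAAT in 19.4% and TGANTCA in 3.86% of the 32851 windows.

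*Tnfaip6* had 344, 104 and 105 normalised reads in WT and 388, 192 and 89.6 in CharmeKO. Both libraries numbered 1 were high and the other 4 were lower, whatever the genotype. Mean values were 184 ± 138 for WT and 223 ± 152 for CharmeKO (SD, n = 3), and the log2 fold change was 0.27 (SE 0.696, 95% interval -1.39 to 1.94, limma unadjusted p = 0.705) that ranged from -0.24 without CharmeKO 1 to 0.84 without WT 1. The sum of the mesothelial markers, 6 of 7 listed and led by *Upk3b*, was high in the same libraries, with 309.7, 39.4 and 64.8 CPM in WT and 345, 91.1 and 21.7 CPM in CharmeKO. Of the 6, *Msln*, *Upk3b*, *Upk1b* and *Lrrn4* were highest in both libraries numbered 1, whereas *Wt1* was at 5.0 and 7.0 CPM there and at 24.7 and 38.3 CPM in WT 2 and CharmeKO 2, and *Krt19* peaked in WT 3 at 18.5 CPM. Some macrophage and leukocyte markers were also highest in both libraries numbered 1. These were *Csf1r* (33.6 and 33.7 CPM beside 7.17 to 8.59 CPM), *Ptprc*, *Adgre1*, *Cd68*, *Mrc1* and *Itgam*. *Lyz2*, *C1qa*, *C1qb* and *Cd14* were not. The part of either cell type in the *Tnfaip6* values was not tested. *Ptx3*, which encodes a pentraxin that binds TSG-6 in the hyaluronan matrix and was picked after its values had been seen, had 7044, 399 and 1230 normalised reads in WT and 8288, 1062 and 624 in CharmeKO. It too was highest in both libraries numbered 1.

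The hyaluronidases differed least. *Hyal2*, which encodes a GPI-anchored enzyme that cuts long hyaluronan at the cell surface, and *Hyal1*, which encodes a lysosomal one that digests it further, are neighbours on the plus strand of chromosome 9 (chr9:107567945-107572779 and chr9:107576927-107581710), with 4147 bases between them. *Hyal2* had 935, 1165 and 1334 normalised reads in WT and 956, 1447 and 1239 in CharmeKO. All 6 values lay within a 1.55-fold range, and the groups overlapped. Mean values were 1144 ± 200.3 for WT and 1214 ± 247 for CharmeKO (SD, n = 3), and the log2 fold change was 0.08 (SE 0.230, 95% interval -0.47 to 0.63, limma unadjusted p = 0.740).

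*Hyal1* had 162, 343 and 271 normalised reads in WT and 162, 392 and 214 in CharmeKO. Same-numbered libraries were close, with both libraries numbered 1 the lowest and both numbered 2 the highest. Mean values were 259 ± 91.3 for WT and 256 ± 121 for CharmeKO (SD, n = 3), and the log2 fold change was -0.05 (SE 0.444, 95% interval -1.11 to 1.02, limma unadjusted p = 0.920). *Naa80* and *Hyal3* overlap exons of *Hyal1* on the same strand. Their overlaps, counted for each gene separately, sum to 2079 bases, beside 3777 exon bases of *Hyal1*. Reads there could not be assigned to 1 gene and, where dropped in counting, would leave the RPKM of *Hyal1* too low. *Hyal2* exceeded *Hyal1* by RPKM in every library, by 3.90-fold in WT 2 to 6.75-fold in CharmeKO 1, ratios that such dropped reads would raise.

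*Cemip* encodes a secreted and membrane-bound protein that is needed for fibroblasts to depolymerise hyaluronan independently of CD44. It spans chr7:83932857-84086502 on the minus strand with 28 merged exons. The 250 bases before its RefSeq start (chr7:84086506-84086755, minus strand) have in capitals a TATAAA, 29 to 24 bases before the start, and 2 reverse-strand matches to GGGCGG, which 12.4% and 32.7% of windows held.
Cemip promoter: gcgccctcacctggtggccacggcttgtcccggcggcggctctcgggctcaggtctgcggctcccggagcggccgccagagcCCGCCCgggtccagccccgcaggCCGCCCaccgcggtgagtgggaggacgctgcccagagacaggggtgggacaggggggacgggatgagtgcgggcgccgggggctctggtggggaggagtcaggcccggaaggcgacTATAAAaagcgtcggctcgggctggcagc
Its GC content was 75.2%.

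*Cemip* had 94051, 82207 and 113599 normalised reads in WT and 93854, 87939 and 362600.0 in CharmeKO. A single library, CharmeKO 3, lay above the others, where the gene took 0.891% of all reads, while CharmeKO 1 and 2 lay within the range of WT. Mean values were 96619 ± 15853 for WT and 181464 ± 156896 for CharmeKO (SD, n = 3), and the log2 fold change was 0.59 (SE 0.609, 95% interval -0.87 to 2.05, limma unadjusted p = 0.367). Without CharmeKO 3 the log2 fold change was -0.076. Within pairs the difference was -0.003, 0.097 and 1.67. The ratio of *Cemip* to *Cemip2*, a related transmembrane protein also tied to hyaluronan breakdown, was 37.6, 32.3 and 47.8 in WT and 51.5, 38.3 and 169 in CharmeKO by RPKM. The ratio of *Cemip* to *Has2* did not single out CharmeKO 3, with 44.8, 11.6 and 17.7 in WT and 39.2, 44.7 and 25.2 in CharmeKO. CharmeKO 3 was the highest library for 17.0% of all tested genes.

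The genes varied more between cultures than most genes. The SD over the 6 libraries, on the log2(value + 1) scale and with n in the denominator, had a median of 0.785 over the 8 genes and of 0.381 over all genes tested, and 7 of 8 lay above the all-gene median, from percentile 60.7 (*Hyal1*) to 87.6 (*Has2*). The exception was *Hyal2* at percentile 27.4. The replicate number accounted for a median of 74.1% of their variance and genotype for 6.37%, close to 73.8% and 5.91% for all genes tested. Genotype took its largest share in *Has1*, 30.4%, and the replicate number its largest in *Hyal1*, 94.7%, and *Tnfaip6*, 89.9%.

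**Figure D4:**
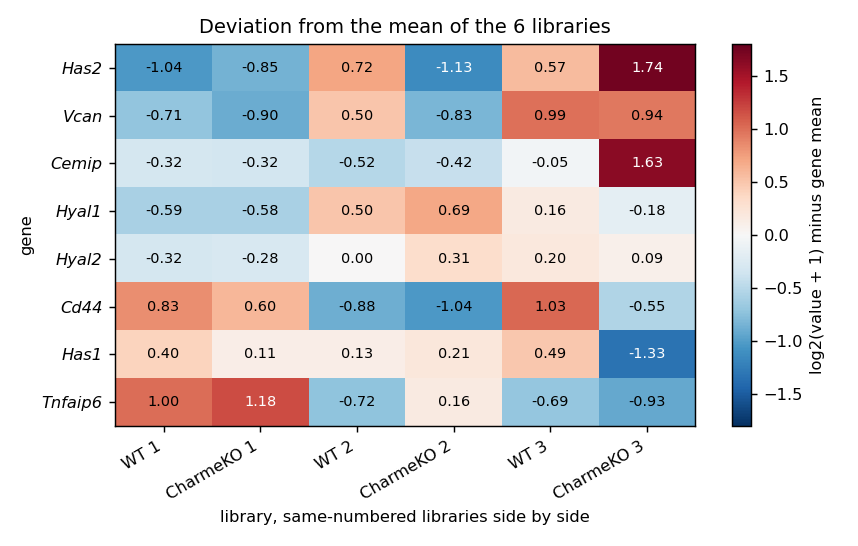
Deviation of each gene in each library from its own mean over 6 libraries, as log2(value + 1), with same-numbered libraries side by side and colour from low (blue) to high (red). *Has2* and *Vcan* are low in both libraries numbered 1 and in CharmeKO 2, whereas *Cd44* and *Tnfaip6* are high in both numbered 1.

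Among the 8 genes the profiles of *Hyal1* and *Hyal2* lay closest, with a root mean square difference of 0.321 log2 units over the 6 libraries after centring, and *Has2* and *Vcan* differed by 0.419. *Has2* and *Tnfaip6* lay farthest apart, at 1.86, and *Vcan* and *Tnfaip6* were at 1.64. Over the other 15947 genes tested, the 3 profiles most like that of *Has2* were *Fibin* (0.273), *BC030343* (0.321) and *Diras2* (0.323), and those most like *Vcan* were *BC030343* (0.168), *Aldh1l2* (0.209) and *Tiam2* (0.215). *BC030343* stood in both. For *Cemip* they were *Syt12* (0.190), the long non-coding RNA *Neat1* (0.200) and *Sema3g* (0.245), and for *Has1* they were *Fcho1* (0.111), *Slc17a9* (0.150) and *Tor4a* (0.155). *Neat1* had 3922, 5014 and 6781 normalised reads in WT and 4659, 5160 and 21670 in CharmeKO, with CharmeKO 3 again the highest. For *Cd44* the nearest were *Ndst3* (0.155), *Tenm3* (0.179) and the integrin subunit *Itgb1* (0.188), for *Tnfaip6* *Serpina9* (0.0621), *Cstb* (0.127) and *Gm16861* (0.133). For *Hyal1* they were *Lcat* (0.0780), *Ccdc136* (0.0846) and *Gria3* (0.0958), and for *Hyal2* *Hsf1* (0.0176), *Gramd1a* (0.0359) and *Enkd1* (0.0611). These likenesses are descriptions over 6 libraries.

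In limma's test the rest of the pathway gave the same picture. Of 55 other genes listed by role, 46 were in the table and 43 were tested, of which limma called 0 (0 also at an unadjusted p under 0.05), with 23 log2 fold changes above and 20 below 0 and a median of 0.011. edgeR and DESeq2 without the block also called 0. With the replicate block limma called 0 and 3 had an unadjusted p under 0.05 (*Itih2*, *Gusb* and *Adamts15*), beside 5.37% of all genes, and DESeq2 with the block called 1, *Adamts15*, a metalloproteinase that cleaves versican, beside 0.426% of all genes. *Adamts15*, named after its values had been seen, had 51.2, 3623 and 357 normalised reads in WT and 102, 9829 and 1283 in CharmeKO, higher in each pair while spanning a far wider range between replicate numbers.

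**Figure D5:**
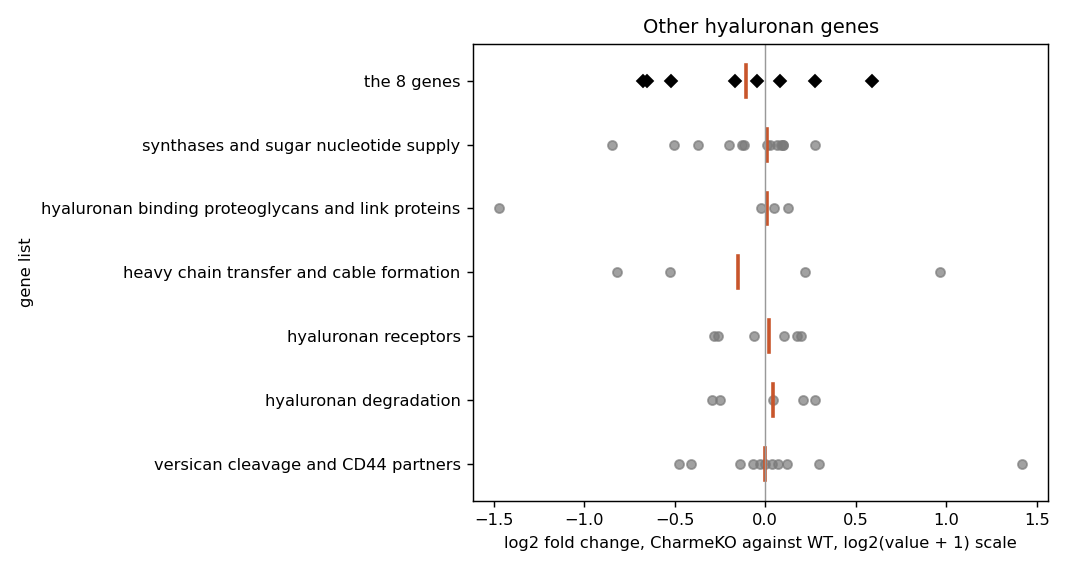
Log2 fold change of CharmeKO against WT on the log2(value + 1) scale for the 8 genes (diamonds) and for the tested genes of 6 other role lists (circles), with the median of each list as a vertical bar. List medians lie between -0.15 and 0.041, and no gene passed limma's adjusted threshold.

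The list of the remaining synthase and the supply of sugar precursors held 13 tested genes, 7 above and 6 below 0, with a median of 0.011. *Has3* was among them, with a log2 fold change of -0.85 (SE 0.784) on few reads. Those with the lowest unadjusted p were the hexokinases *Hk1* (log2 fold change -0.37, SE 0.310) and *Hk2* (-0.50, SE 0.460). *Hk2* had 7230.4, 3859 and 6750 normalised reads in WT and 7891, 3106 and 2689 in CharmeKO. CharmeKO 2 and 3 thus lay below all WT libraries and CharmeKO 1 above them. The log2 fold change of *Hk2* was -0.99 without CharmeKO 1 (limma unadjusted p = 0.0214, adjusted p = 0.997) and -0.21 without CharmeKO 3. Of the hyaluronan-binding proteoglycans and link proteins 4 of 7 listed were tested, 2 above and 2 below 0, all scarce next to versican. *Acan*, the cartilage proteoglycan aggrecan, had 32, 0 and 36 reads in WT and 8, 1 and 3 in CharmeKO, and *Bcan*, brevican, had a log2 fold change of 0.13 (SE 0.634).

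Heavy chain transfer was represented by 4 tested genes, 2 above and 2 below 0, with a median of -0.15. *Itih2*, a heavy chain that TSG-6 couples to hyaluronan, had 158, 1967 and 635 normalised reads in WT and 131, 844 and 325 in CharmeKO, lower in each pair (log2 fold change -0.82, SE 1.04, limma unadjusted p = 0.458 without and 0.0194 with the block). *Itih4* had a log2 fold change of 0.97 (SE 1.39) on at most 91.4 normalised reads. Of the receptors 6 were tested, 3 above and 3 below 0. *Tlr4*, an innate immune receptor that can sense hyaluronan fragments, had a log2 fold change of -0.26 (SE 0.363), and *Layn*, the hyaluronan receptor layilin, was steady at 1526 to 1912 normalised reads (0.10, SE 0.150).

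Of the 43 other genes tested, the groups did not overlap for 1 that was higher and 1 that was lower in CharmeKO. This was close to the 2.14% and 1.98% of all genes. Both were in the degradation list. *Gusb*, the lysosomal beta-glucuronidase that trims hyaluronan fragments, had 5890.1, 5419 and 4594 normalised reads in WT and 6494, 6559 and 6093 in CharmeKO (log2 fold change 0.27, SE 0.159, limma unadjusted p = 0.130). *Cemip2* had 1744, 1770.2 and 1657 in WT and 1270.1, 1599 and 1491 in CharmeKO (-0.25, SE 0.158, unadjusted p = 0.158). In neither did the difference pass limma's adjusted threshold. The 11 tested genes of versican cleavage and CD44 partners, 6 above and 5 below 0, had a median of 0.00078. *Rdx*, the cytoskeletal linker radixin, had a log2 fold change of -0.14 (SE 0.182), and *Adamts4*, a versican-cleaving protease, had 644, 2915 and 2682 normalised reads in WT and 671, 1756 and 1581 in CharmeKO (-0.48, SE 0.664). The *Adamts4* estimate was -1.18 without WT 1 (limma unadjusted p = 0.0389, adjusted p = 0.9999) and -0.041 without CharmeKO 1.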

How the data were processed

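RNA had been extracted from the cultured CFs and poly(A) libraries made with a directional kit. Per the methods and the submitters' processing notes, the authors aligned reads with STAR to GRCm39 and counted them by gene, taking the reverse strand and an Ensembl annotation extended by *Charme*. Scarcely read genes were removed and DESeq2 was used for normalisation. Tool versions are not given in the sources used here. STAR's gene counting drops reads that map to several places or overlap several genes on that strand. What the authors deposited is a signal: counts of reads over a size factor for the library. Because every value was a whole multiple of the library's step (100% of 116676 values within 1e-06), the reads were recovered. No 2 libraries agreed within sampling noise.

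Groups and replicate numbers came from the sample titles. Log2(value + 1) was tested with limma's trended, moderated statistic and a single genotype term, on the 15948 genes that had 10 or more reads in 2 or more libraries. Tests were two-sided, with Benjamini-Hochberg adjustment over these genes and a threshold of 0.05. Fold changes on this scale are understated for genes with few reads. Recovered reads were also tested with edgeR's quasi-likelihood test and DESeq2. By the methods, experiments used independent primary cell isolations. Limits from counts cover counting error only. Deviations of same-numbered libraries from their group means correlated across genes with r = 0.762, 0.514 and 0.217, above the minimum of 0.1. The numbers were therefore used as pairs in the block fits and in the pair differences, although what a pair shares is not stated. The main limma fit has no pair term, so SEs, intervals and p-values printed without mention of the block leave the pairing out. Between libraries of unlike number r ranged from -0.643 to 0.222, and WT 2 with CharmeKO 3 (0.222) was as close as pair 3.

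RPKM was computed from merged exons of GENCODE M21 (GRCm38), which also gave loci, since the table holds no coordinates. Promoter windows came from RefSeq (GRCm38.p6). The 8 genes, the other lists and the markers were chosen with earlier results of these data known. Named besides the 8 are, of each other list, up to 2 genes with the lowest unadjusted p, the 3 nearest profiles of each gene and the top gene of each marker list. Outside this rule, *Has3* is named to complete the synthases, and *Msn*, *Ezr*, *Ptx3* and *Adamts15* after their values had been seen. Some markers are named beside their sum, also after their values had been seen. Scripts were tested on simulated data. With a set replicate effect (SD 0.8 on the log2 scale), limma and edgeR without the block recovered 0 of 200 changed genes. With the block they recovered 145 and 147. In simulated reads that lacked this effect, limma recovered 137 without and 141 with the block. The set SD lay far above the median SD over the 6 libraries of all genes tested, 0.381, and near that of the 8 genes, 0.785. Replicate effects between these settings were not simulated. As changed genes were missed in both simulations, a count of 0 calls from the unblocked test does not show that a gene is unchanged. Alternatives were other pseudocounts, filters, scalings and tests, the block, and leaving out each library. Listed genes that were not matched in the table were not analysed here. Software was R 4.3.3, limma 3.58.1, edgeR 4.0.16, DESeq2 1.42.0, Python 3.11.15 and matplotlib 3.10.9.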

Additional observations from a re-analysis of the deposited data

How the results depend on the processing

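No setting made a call among the 8 genes: the count was 0 under each other test, pseudocount, filter and scaling, with the replicate block in limma, edgeR and DESeq2, and without each of the 6 libraries in turn. Over all genes tested limma called 0, DESeq2 8 and DESeq2 with the replicate block 64, and the latter called 1 of the other hyaluronan genes, *Adamts15*. The sign of *Has2* turned to 0.27 in edgeR with TMM and to 0.26 in edgeR with DESeq2 size factors and in DESeq2 (0.26), the sign that the plain means have (1800 normalised reads in WT and 2163 in CharmeKO). Leaving out single libraries turned the sign of *Has2* (-1.07 to 0.36), *Hyal1* (-0.40 to 0.23), *Hyal2* (-0.059 to 0.24), *Tnfaip6* (-0.24 to 0.84), *Cemip* (-0.076 to 0.95), *Bcan* (-0.14 to 0.50), *Itih2* (-1.76 to 0.060), *Itih4* (-0.081 to 2.10) and *Tlr4* (-0.48 to 0.11). *Has1* (-0.95 to -0.18), *Vcan* (-1.12 to -0.15) and *Cd44* (-1.26 to -0.30) kept theirs, as did *Adamts4* (-1.18 to -0.041), *Hk2* (-0.99 to -0.21) and *Hk1* (-0.67 to -0.21). *Acan* (-3.20 to -0.97) failed the read filter without WT 1 and without WT 3, the libraries that held most of its reads. Whether its sign would hold there could not be seen. The median log2 fold change of all genes was 0.0022 in the main fit and 0.036 with plain library size, the highest under any scaling. With 3 libraries a group and this spread between cultures, a log2 difference of 1 in both directions lay outside the 95% interval for *Hyal2*, and with the replicate block also for *Hyal1*.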
